A study of Mus musculus with 18 samples.

Results

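Ectopic endometriotic lesions were compared with eutopic endometrium in ERBOE mice, which are described as overexpressing oestrogen receptor beta. The comparison used the 3 lesion arrays and the 3 eutopic arrays of that genotype, 6 of the 18 arrays in the series, chosen by their titles. The other 12 arrays held ERBOE uterus and the same 3 tissues of PRCre/+ mice. Unless named, they entered only the shared estimate of the spread, the filter on low signal and the choice of each gene's brightest probe. Lesions grew from 2 mm punches of ERBOE uterus, implanted into intact wild-type C57BL/6J females of 8 weeks, 1 punch per host. Eutopic endometrium came from ERBOE females that had received a wild-type punch at 8 weeks. Both tissues were taken at estrus in the 4th week after surgery. ERBOE uterus, given below for reference, was taken at estrus from females of 12 weeks for which no surgery is described. Each array carried RNA pooled from 3 animals, so 9 animals stood behind each group.

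By this account the lesion and eutopic samples came from different animals, and the cells that a host adds to an ERBOE implant are wild-type. PRCre is a Cre allele at the progesterone receptor locus, so overexpression in the ERBOE line is tied to cells that have used that locus, and the control animals carry the same allele. The labels leave 2 doubts. The source names of these ERBOE samples describe mice free of endometriosis, against their titles and the treatment text, and the text on the eutopic samples speaks of lesions being collected where eutopic endometria are then pooled. Titles were followed.

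Endometriosis is the growth of endometrium-like tissue outside the uterus. Oestrogen drives the growth of that tissue, progesterone restrains it, and oestrogen receptor beta, encoded by Esr2, has been tied to escape from cell death and to inflammation in lesions. Lesions on the peritoneum or mesentery lie against host tissue, which includes fat, mesothelium, vessels and immune cells, so bulk RNA from a lesion can contain all of these. Throughout, a level is the log2 signal of a gene's brightest probe minus the 75th percentile of its array, and a difference is the lesion mean minus the eutopic mean with its limma standard error (SE, n = 3 arrays per group). In pooled tissue, fewer cells of a type and less RNA per cell cannot be told apart.

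The 75th percentile signal was between 551.6 and 626.2 in lesions and between 671.0 and 744.7 in eutopic samples, and no spot was saturated. The share of probes well above background was 58.4% to 67.4% in lesions and 64.1% to 74.2% in eutopic samples. Lesion 2 stood apart from the other lesions: it correlated with them at 0.945 and 0.948 across features, against 0.969 between lesions 1 and 3, and at 0.948 with eutopic 2. Its summed signal over 27 smooth muscle genes was 440 times the array's 75th percentile signal, against 1240 and 946 in lesions 1 and 3 and 940 to 1180 in eutopic samples. Eutopic 1 had the highest levels of several fat and neutrophil genes among eutopic arrays, as given below. Lesion 2 was the only one of the 6 arrays on slide 1. Slide 2 held lesion 3 and eutopic 1, and slide 3 held lesion 1 with eutopic 2 and 3.

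Krt8 and Hoxa10, markers of epithelium and of uterine stroma, both gave signal in the lesions. Krt8, an epithelial keratin, read 5.35, 5.16 and 5.15 in lesions 1, 2 and 3 and 5.59, 5.16 and 5.93 in eutopic 1, 2 and 3. Hoxa10, a positional gene of uterine stroma, read 2.78, 3.45 and 3.13 in lesions and 3.88, 4.57 and 3.74 in eutopic samples. Neither passed the test (adjusted p = 0.910 and 0.556 in limma), and the lesion Krt8 levels lay within or just below the eutopic ones, while the Hoxa10 levels of the groups did not overlap. Lesions were at 1.09-fold of eutopic samples for Epcam, 0.874 for Krt18, 0.854 for Cdh1 and 0.601 for Krt19, further epithelial markers. The stromal markers Pdgfra, Hand2 and Hoxa11 stood at 1.04, 0.721 and 0.47, and none of these markers was called. The 21 tested stromal genes had a median difference of -0.50, between -0.67 and -0.23 with an array left out, and 1 was called higher. The 37 tested epithelial genes had a median difference of -0.32 and the 27 smooth muscle genes of -0.31, with 0 called in either list. The smooth muscle median was 0.06, with 1 gene called higher, without lesion 2 and -0.57 without lesion 1. The epithelial median was -0.12 without eutopic 3 and -0.20 without lesion 3. The median of all differences was -0.13, and differences are to be read against it. The pancreas markers Pnlip and Prss2 did not pass the filter on low signal, nor did Ly6g of neutrophils or Myh4 of skeletal muscle.

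Of 33455 features tested, 156 were higher in lesions (0.466%) and 45 were lower (0.135%) at an adjusted p under 0.05 in limma. At an unadjusted p under 0.05 there were 1623 higher and 1938 lower. Among the calls, 128 of those higher and 25 of those lower had a gene symbol. The 28 higher and 20 lower calls without a symbol belong to no list and were not examined further. They include the call with the largest fitted difference, at least 154-fold higher in lesions (adjusted p = 0.0159). Lesion and eutopic levels did not overlap for any of the 201. Over all features, 6.97% were higher without overlap and 13.5% were lower without overlap. The 201 were chosen for a small p on these same arrays, so their lack of overlap is a description only. Within both slides that held lesion and eutopic arrays, all 201 differences had the sign of the whole comparison, as groups without overlap must. With slide as a block, 178 of the 201 were also called. Without lesion 2 and eutopic 1, 143 features were called higher and 32 lower. The counts moved with single arrays: 55 were higher and 8 lower without lesion 1, 90 and 28 without lesion 3, 78 and 18 without eutopic 2, and 55 and 12 without eutopic 3. Lower calls fell to 18 without eutopic 1, while higher calls were then 112. Of the 201, 44 higher and 6 lower features stayed called in each of the 6 fits that left out 1 of these arrays.

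**Figure D1:**
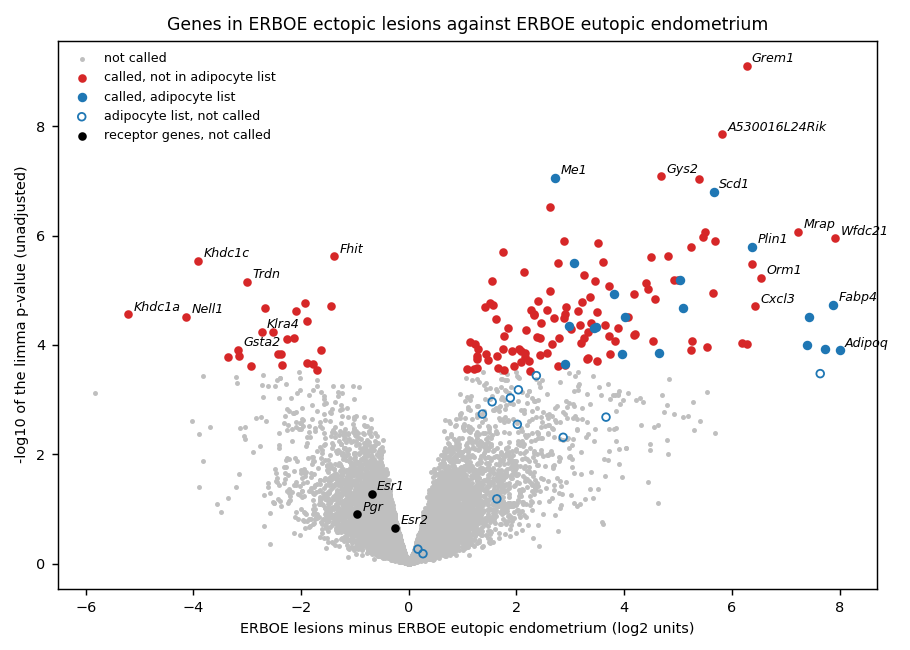
Each point is a gene with a symbol; the horizontal axis is the lesion minus eutopic difference in log2 units and the vertical axis the -log10 of its unadjusted limma p-value. Genes called higher (128) outnumber genes called lower (25), 19 of the former belong to the adipocyte list (blue), and the receptor genes Esr1, Esr2 and Pgr (black) lie among the genes that were not called.

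Genes of fat cells gave more calls than any other of the 47 lists. Of 32 listed adipocyte genes 31 were tested, 19 rose, 0 fell, and the median difference was 3.48 against -0.13 over all features. Their summed signal was 864, 765 and 1010 times the array's 75th percentile signal in lesions 1, 2 and 3, 121, 93.8 and 75.4 in eutopic 1, 2 and 3, and between 68.6 and 119 in uterus. The number of calls in the list depended on the arrays used: it was 7 without lesion 1, 9 without lesion 3, 8 without eutopic 2, 7 without eutopic 3, 13 without lesion 2 and 18 without eutopic 1. Within slides 2 and 3 the list's median difference was 3.06 and 3.78.

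The lipid droplet is the storage organelle of the fat cell, and its coat proteins were among the largest differences. Plin1, the perilipin that covers the droplet, read 1.76, 2.03 and 2.20 in lesions and -2.41, -4.56 and -6.17 in eutopic samples, of which 2 were above background. The lesions lay close together and eutopic 1 was the nearest of the eutopic arrays. The difference was 6.38 ± 0.82, or 83.2-fold (adjusted p = 0.00299), and it was called in all 6 fits with an array left out. Cidec, a protein that fuses droplets, read 5.56, 5.20 and 5.88 in lesions and 1.33, -3.65 and -4.25 in eutopic samples (7.73 ± 1.48, adjusted p = 0.0277). Plin4, another perilipin, rose by 3.81 (adjusted p = 0.0079). Fabp4, the fatty acid carrier of adipocytes, read 6.43, 6.53 and 6.65 in lesions against 1.71, -1.87 and -3.86 (7.88 ± 1.26, adjusted p = 0.0104). For Plin1, Cidec and Fabp4 the 3 lesions differed little and the eutopic arrays spread widely, with eutopic 1 highest. Cidec was called in 1 and Fabp4 in 4 of the 6 fits with an array left out.

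Genes of fat-derived hormones did not all pass. Adipoq, the adiponectin gene, read 4.89, 4.64 and 5.34 in lesions 1, 2 and 3 and 0.53, -3.85 and -5.80 in eutopic 1, 2 and 3. This was the largest difference among the genes with a symbol, 8.00 ± 1.54 (adjusted p = 0.0280), yet it was called in only 1 of 6 fits with an array left out and had an adjusted p of 0.0517 with slide as a block. Retn, the resistin gene, differed by 7.40 ± 1.39 (adjusted p = 0.0243) and was called in 1 of those 6 fits. Cfd, the complement factor known as adipsin, differed by 7.64 and did not pass (adjusted p = 0.053). Lep, the leptin gene, read -1.85, -2.48 and -2.12 in lesions and -2.15, -2.39 and -2.42 in eutopic samples, groups that overlapped (0.17 ± 0.27, adjusted p = 0.882).

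Of 32 genes of cholesterol and fatty acid synthesis, 3 rose, and the list's median difference was 0.49. Against ERBOE uterus the list's median difference was -0.30 in lesions and -0.77 in eutopic samples. Scd1, the desaturase that makes oleic acid, read 4.50, 4.39 and 4.77 in lesions and -0.65, -1.22 and -1.47 in eutopic samples, all 6 above background. This is a difference of 5.67 ± 0.60, or 50.8-fold (adjusted p = 0.000876), with 5.42 and 5.84 within slides 2 and 3. Me1, the malic enzyme that supplies reducing power for fatty acid synthesis, read 3.12, 3.44 and 3.11 against 0.59, 0.35 and 0.60 (2.71 ± 0.28, adjusted p = 0.000603). Both genes had narrow, well separated groups, and uterus read -2.22, -1.74 and -1.40 for Scd1 and 1.62, 1.48 and 1.09 for Me1. Acly, which makes cytosolic acetyl-CoA, rose by 1.08 ± 0.23 (adjusted p = 0.0473), a call that was lost with slide as a block (adjusted p = 0.0632) and in all 6 fits with an array left out.

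In the adipocyte list, Lipe, the hormone-sensitive lipase, rose by 3.07 (adjusted p = 0.0039) and Adrb3, the beta-3 adrenergic receptor that signals lipolysis, by 5.04 (adjusted p = 0.0059). Pparg, the transcription factor that sets the adipocyte programme, read 1.82, 1.68 and 1.97 in lesions and -0.52, -1.61 and -1.08 in eutopic samples. Its difference of 2.90 passed (adjusted p = 0.041), but in 0 of 6 fits with an array left out. Cidea and Dgat2, both in the list, did not pass (adjusted p = 0.51 and 0.92). Ucp1, the marker of brown fat, was not tested because its signal was too low.

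Further called genes with a known place in fat metabolism, picked here after their values were seen, included Mrap, the accessory protein of the melanocortin receptor, at 1.83, 1.83 and 1.98 in lesions and -3.38, -5.84 and -6.82 in eutopic samples, 1 of them above background (7.23 ± 0.88, adjusted p = 0.00287). Apoc1, an apolipoprotein, differed by 5.50 ± 0.67 and Sucnr1, the succinate receptor, was at least 12.1-fold higher, since no eutopic array was above background for it. Gys2, a glycogen synthase, was likewise at least 5.77-fold higher (adjusted p = 0.000603). All 4 were called in each of the 6 fits that left out an array. Which cells of the lesion gave this RNA was not tested: the arrays measured tissue as a whole.

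Promoter windows are printed for a few called genes that were picked with the results known and that hold a match. They are as the RefSeq table gives them on GRCm38.p6, from 250 bases before to 50 after the annotated start. Of the called genes with a symbol, 88 of 128 higher and 14 of 25 lower had an entry. Capitals in Plin1, Cidec and Orm2 mark the letters TTGCNNAA, the core that C/EBP factors of adipocytes and liver bind, searched on both strands. Plin1 lies at chr7:79732727-79733026 on the minus strand, Cidec at chr6:113434715-113435014 on the minus strand, which is 1 of its 2 windows, and Orm2 at chr4:63362199-63362498 on the plus strand.
Plin1: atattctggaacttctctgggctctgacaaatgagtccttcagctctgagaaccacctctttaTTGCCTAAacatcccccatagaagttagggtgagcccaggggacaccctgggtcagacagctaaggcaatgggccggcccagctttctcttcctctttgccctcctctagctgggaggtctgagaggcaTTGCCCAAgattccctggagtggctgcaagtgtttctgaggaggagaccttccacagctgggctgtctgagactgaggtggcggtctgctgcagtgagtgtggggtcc
Cidec: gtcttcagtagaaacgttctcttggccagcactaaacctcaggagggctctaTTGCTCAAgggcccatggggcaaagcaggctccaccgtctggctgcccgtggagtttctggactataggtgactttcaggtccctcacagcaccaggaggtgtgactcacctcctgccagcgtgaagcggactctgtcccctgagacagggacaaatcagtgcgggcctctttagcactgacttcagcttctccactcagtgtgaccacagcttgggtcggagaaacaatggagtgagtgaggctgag
Orm2: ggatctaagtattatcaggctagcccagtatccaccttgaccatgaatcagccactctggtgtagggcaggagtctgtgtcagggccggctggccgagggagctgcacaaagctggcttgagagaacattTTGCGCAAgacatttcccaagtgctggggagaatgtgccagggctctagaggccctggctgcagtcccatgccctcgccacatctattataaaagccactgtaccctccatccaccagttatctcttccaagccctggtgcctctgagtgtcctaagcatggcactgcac
These letters stood in the windows of 25 of the 88 called-higher genes (28.4%), 1 of the 14 called-lower genes (7.14%) and 12.2% of all 27025 genes of the table. The motifs were chosen with the results in view, and a match is a description of the letters only.

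Grem1 and Cxcl3, which are described next, are shown with other motifs. Capitals in Grem1, at chr2:113758599-113758898 on the minus strand, mark AGGTCA read on either strand, the letters to which oestrogen receptors can bind as a half-site. The NF-kB motif searched was GGG, any 2 bases and TTTCC, on both strands. Capitals in Cxcl3, at chr5:90785851-90786150 on the plus strand, mark its match.
Grem1: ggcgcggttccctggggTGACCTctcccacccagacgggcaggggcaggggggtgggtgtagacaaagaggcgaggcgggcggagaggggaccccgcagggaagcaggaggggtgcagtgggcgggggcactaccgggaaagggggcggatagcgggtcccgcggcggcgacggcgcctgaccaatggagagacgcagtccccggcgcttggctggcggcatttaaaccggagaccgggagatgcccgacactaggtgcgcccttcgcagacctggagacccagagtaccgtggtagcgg
Cxcl3: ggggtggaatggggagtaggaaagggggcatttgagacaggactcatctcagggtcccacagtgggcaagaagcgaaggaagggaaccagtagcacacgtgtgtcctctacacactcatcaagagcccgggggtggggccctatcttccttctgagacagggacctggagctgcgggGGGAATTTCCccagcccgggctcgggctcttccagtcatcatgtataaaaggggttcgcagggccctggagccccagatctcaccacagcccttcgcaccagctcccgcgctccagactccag
AGGTCA stood in 20.5% of called-higher genes, 21.4% of called-lower genes and 18.1% of all genes in the table. A full oestrogen response element, GGTCA and TGACC with any 3 bases between them, which can contain that half-site, was in the windows of 0 of the 88 genes called higher, 0 of the 14 called lower and 0.074% of all genes. The NF-kB letters were in 3 of the 88 (3.41%) and in 1.89% of all genes.

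**Figure D2:**
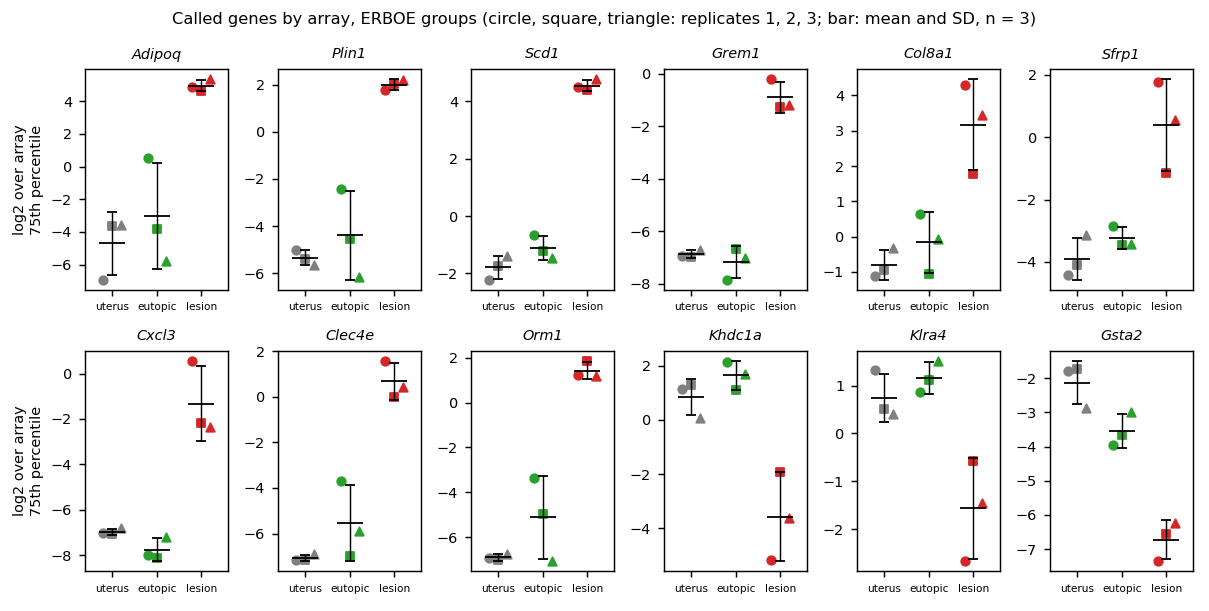
Levels of 12 called genes (log2 signal over the array's 75th percentile, vertical axis) in the 3 uterus, 3 eutopic and 3 lesion arrays of ERBOE mice, with the mean and SD of each group. Lesion and eutopic points do not overlap in any panel; for Adipoq, Plin1 and Clec4e eutopic 1 (circle) is the eutopic array nearest to the lesions.

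Grem1 had the smallest p of all features. It encodes gremlin 1, a secreted antagonist of bone morphogenetic proteins made by fibroblasts. It read -0.22, -1.26 and -1.21 in lesions and -7.84, -6.66 and -7.004 in eutopic samples, and 0 of 3 eutopic and 0 of 3 uterus arrays were above background. The lesions were therefore at least 24.4-fold higher (adjusted p = 2.59e-05), and the gene was called in each of the 6 fits with an array left out. It was the only call among 41 tested genes of the BMP, activin and TGF-beta pathway, whose median difference was 0.30, or 0.13 without lesion 1, 0.16 without eutopic 2 and 0.47, with 2 calls, without lesion 2. The antagonists Chrdl1 and Nog on that list did not pass, with differences of 1.71 and -0.27 (adjusted p = 0.06 and 0.93).

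Wnt signalling gave 2 calls of 42 tested genes and a list median of 0.02, which was below 0 without lesion 1, lesion 3, eutopic 2 or eutopic 3. Sfrp1, a secreted Wnt antagonist, read 1.76, -1.16 and 0.57 in lesions and -2.84, -3.46 and -3.44 in eutopic samples, so lesion 2 was the lowest of the lesions and still above all eutopic arrays (3.64 ± 0.63, adjusted p = 0.0151). Fzd4, a Wnt receptor, read 1.93, 1.52 and 2.06 against -0.22, 0.35 and -0.14 (1.84 ± 0.32, adjusted p = 0.0163). Each was called in 2 of 6 fits with an array left out. Among 25 tested ligands and regulators of the IGF and EGF receptors, Igfals, which carries IGF in blood, rose by 2.87 ± 0.36 with 1 eutopic array above background (adjusted p = 0.00298), and Ereg, the EGF receptor ligand epiregulin, was at least 2.67-fold higher and not above background in eutopic samples (adjusted p = 0.00388).

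Most matrix genes had a positive difference, with few calls. Of 39 collagen genes and collagen-modifying enzymes 1 rose and 32 had a positive difference, with a median of 0.55, or 0.35 without lesion 1. The list had 3 calls without lesion 2 and 0 without lesion 1, lesion 3, eutopic 2 or eutopic 3. Col8a1, a short-chain collagen of vessel walls and injured tissue, read 4.29, 1.76 and 3.46 in lesions and 0.63, -1.07 and -0.07 in eutopic samples (3.34 ± 0.60, adjusted p = 0.0178), and was called in 2 of 6 fits with an array left out. The abundant fibrillar collagens Col1a1 and Col3a1 differed by 0.40 ± 0.78 and 0.51 ± 0.42 and did not pass (adjusted p = 0.903 and 0.739). Fmod, a collagen-binding proteoglycan, rose by 2.46 ± 0.42 (adjusted p = 0.0142) and was the 1 call of 38 matrix glycoproteins, while Aspn, a related proteoglycan counted with the stromal genes, rose by 1.76 ± 0.37 (adjusted p = 0.0488). Fmod was called in 3 and Aspn in 2 of the 6 fits with an array left out.

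Mmp13, a collagenase, was the 1 call of 34 matrix proteases and inhibitors: lesions read -1.95, -3.90 and -3.68, no eutopic array was above background, and the lesions were at least 5.02-fold higher (adjusted p = 0.0223), called in 1 of those 6 fits. The list's median was 0.76, or 1.40 without lesion 2. Lesion 1 was the highest for Sfrp1, Col8a1 and Mmp13. Chosen after their values were seen, Ccn5, a matricellular protein of fibroblasts and smooth muscle, read 2.77, -0.63 and 1.04 against -4.26, -5.63 and -3.86 (5.64 ± 0.86, adjusted p = 0.00787). Cilp, a matrix protein of cartilage and fibrous tissue, read 3.03, 0.71 and 2.33 against -2.67, -3.60 and -2.64 (4.99 ± 0.73, adjusted p = 0.00594). Both stayed called with any 1 of the 6 arrays left out, and lesion 2 was the lowest lesion for both.

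Several called genes of secreted proteins are given here as single genes; they form no list. Orm1, an acute-phase carrier protein of plasma, read 1.20, 1.86 and 1.18 in lesions and -3.35, -4.95 and -7.06 in eutopic samples, 2 of them above background (6.54 ± 0.94, adjusted p = 0.00594). Its neighbour Orm2, above background on 1 eutopic array, differed by 5.68 ± 0.72, and the protease inhibitor Serpina3n by 4.92 ± 0.72, with 1.66, -0.39 and -0.04 against -4.91, -3.62 and -5.02. The Orm and Serpina3 families hold near-identical copies, so a probe may read more than 1 of them. Wfdc21, a small secreted protein of the whey acidic protein family, read 2.84, 1.69 and 2.42 against -3.48, -6.33 and -7.02 (7.92 ± 0.99, adjusted p = 0.00298). Only 1 of its 3 eutopic values was above background, so the size of that difference rests on background levels in the other 2. Sod3, the extracellular superoxide dismutase, read 3.41, 2.40 and 3.07 against -0.67, -0.07 and -0.50 (3.37 ± 0.52, adjusted p = 0.00853).

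Most myeloid and chemokine genes had a positive difference. Of 33 tested macrophage and monocyte genes 32 had a positive difference, with a median of 1.16, and 2 were called; the summed signal was 421, 264 and 333 in lesions and 212, 132 and 128 in eutopic samples. Clec4e, a myeloid receptor for damaged cells and mycobacterial lipid, read 1.57, 0.00 and 0.43 in lesions and -3.69, -6.98 and -5.90 in eutopic samples, 1 of them above background (6.19 ± 1.16, adjusted p = 0.0231). Vsig4, a complement receptor of resident macrophages, was above background in 2 lesions and no eutopic array, at least 3.22-fold higher (adjusted p = 0.0225). The pan-macrophage genes Adgre1 and Csf1r differed by 0.46 ± 0.66 and 0.81 ± 0.47 and did not pass (adjusted p = 0.867 and 0.596). The list had 0 calls without lesion 1, eutopic 2 or eutopic 3, and 1 without lesion 2 or lesion 3.

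The chemokine list had 4 calls of 42 tested genes and a median difference of 1.12, or 0.95 with genes below background set to their bound. Cxcl3, an attractant of neutrophils, read 0.56, -2.19 and -2.35 in lesions, was not above background in any eutopic array, and was at least 18.1-fold higher (adjusted p = 0.0106). Cxcl13, the attractant of B cells, read -0.10, -3.42 and -1.03 and was at least 15.8-fold higher (adjusted p = 0.0261). Lesion 1 was the highest array for both. Ccl24, an eosinophil attractant, rose by 3.26 ± 0.60 (adjusted p = 0.0206), and Ccl17, which attracts T cells, by 2.76 ± 0.57 (adjusted p = 0.0433, and 0.0510 with slide as a block). The number of chemokine calls was 0 without lesion 1, 1 without lesion 3 or eutopic 2, 2 without eutopic 1 or eutopic 3, and 5 without lesion 2.

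Neutrophil genes varied from array to array. Clec4d, a myeloid lectin, was the 1 call of 19 (5.24 ± 1.01, adjusted p = 0.0280). S100a8, a calgranulin that neutrophils hold in bulk, read 5.42, 1.82 and 3.54 in lesions and 1.56, -4.58 and -1.46 in eutopic samples, so that eutopic 1 came close to lesion 2, and it did not pass (5.09 ± 1.34, adjusted p = 0.135). The summed neutrophil signal overlapped between groups, at 542, 125 and 229 in lesions and 345, 99.8 and 172 in eutopic samples. The list's median difference was 1.82, or 1.25 with genes below background at their bound. The Clec4d call was lost without lesion 1, lesion 3, eutopic 2 or eutopic 3, and the list had 3 calls without eutopic 1.

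Of 21 tested B cell genes 20 had a positive difference, with 0 calls and a median of 1.03; there were 2 calls without lesion 2. Ms4a1, the CD20 gene, read -1.53, -4.23 and -1.90 in lesions and was above background in 0 of 3 eutopic arrays, at least 7.71-fold higher, without passing (adjusted p = 0.0815). T cell genes had 0 calls of 24 and a median of 0.52. The TNF and NF-kB response list had 1 call of 33, Cxcl3, and a median of 1.17, with 0 calls without lesion 1 and 2 without lesion 3.

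Most natural killer cell genes had a negative difference. Of 26 tested natural killer and cytotoxic genes 21 had a negative difference, the median was -1.18, and 1 fell. Klra4, a Ly49 receptor, read -2.67, -0.57 and -1.46 in lesions and 0.86, 1.11 and 1.52 in eutopic samples (-2.73 ± 0.49, adjusted p = 0.0178), with uterus at 1.32, 0.50 and 0.41. Klra16, of the same family but not listed, fell by 2.52 on the log2 scale (adjusted p = 0.0178); the Ly49 genes are so alike that these probes may read several of them. Klra8 and Klra7 differed by -2.62 and -2.48 and did not pass (adjusted p = 0.071 for each). Defining markers did not pass: Ncr1 differed by -1.21 ± 0.50, Klrb1c by -1.10 ± 0.43 and Prf1, the perforin gene, by -0.11 ± 0.36. The summed signal of the list was 9.73, 30.2 and 12.0 in lesions and 26.5, 52.5 and 23.6 in eutopic samples, with lesion 2 above eutopic 1 and 3. Without lesion 2 the list had 6 calls lower, and without lesion 1, lesion 3, eutopic 2 or eutopic 3 it had 0.

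**Figure D3:**
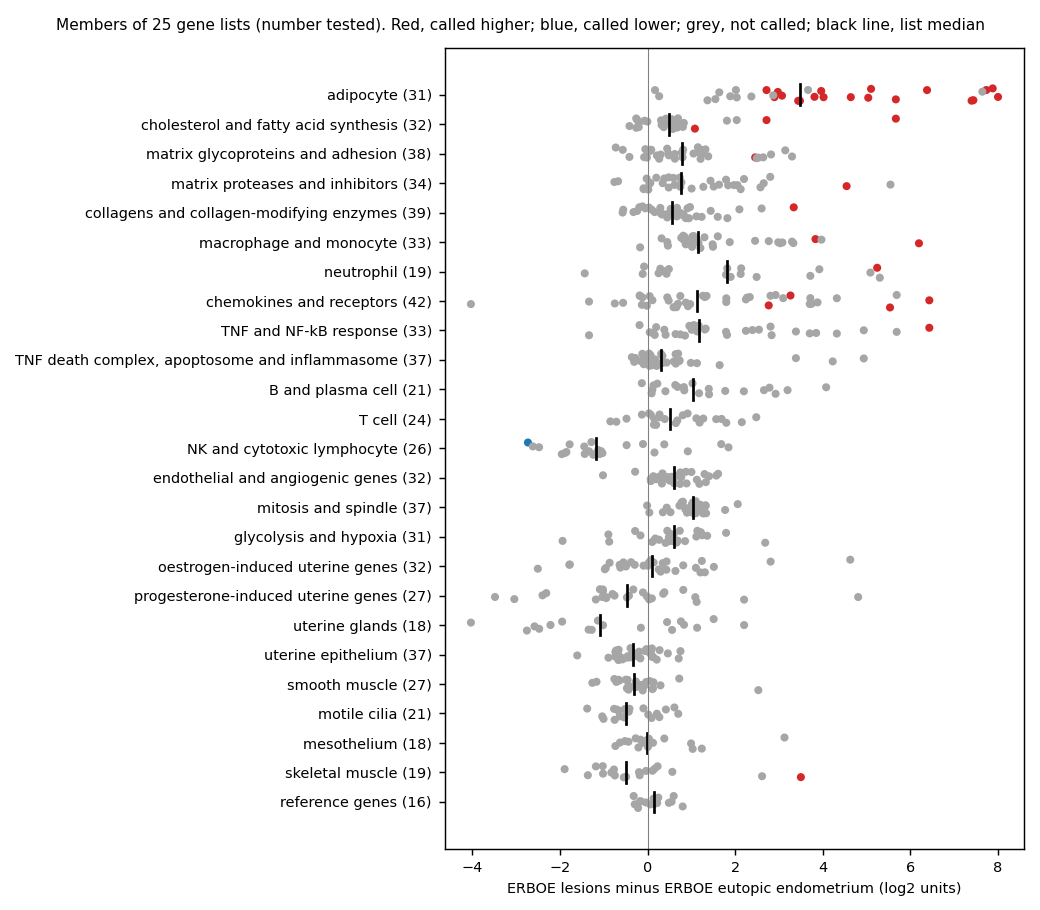
Differences between lesions and eutopic endometrium (log2 units, horizontal axis) for the tested members of 25 gene lists, 1 point per gene, with the list median as a black line and calls in colour. The adipocyte list has 19 of its 31 members called higher and a median of 3.48, and the other lists have 4 calls or fewer.

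Among genes with a symbol that were called lower in lesions, Khdc1a had the largest fitted difference, followed by Nell1 and Khdc1c. Khdc1a, a gene of the KH-domain family known from oocytes and early embryos, read -5.18, -1.91 and -3.62 in lesions and 2.15, 1.08 and 1.70 in eutopic samples, with uterus at 1.15, 1.29 and 0.07. Its difference was -5.21 ± 0.87 (adjusted p = 0.0118), and it was called in 3 of 6 fits with an array left out. No eutopic array overlapped a lesion. Khdc1c read -4.69, -3.47 and -5.15 against -0.25, -0.97 and -0.35 (-3.91 ± 0.53, adjusted p = 0.00388) and stayed called in all 6. The family holds close copies, so these probes may read the same transcripts, and the 2 genes are not independent.

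Nell1, a secreted factor of bone formation, read -6.78, -4.82 and -3.95 in lesions, 1 of them above background, and -0.74, -1.09 and -1.30 in eutopic samples (-4.14 ± 0.69, adjusted p = 0.0121). Trdn, the triadin of muscle calcium release, read -5.37, -4.91 and -3.82 against -1.39, -1.68 and -2.02 (-3.002 ± 0.44, adjusted p = 0.00594). In both, all lesions lay below all eutopic arrays, and Nell1 was called in 2 of 6 fits with an array left out. Fhit, a nucleotide hydrolase at a fragile site, named after its values were seen, fell by 1.38 on the log2 scale with a narrow spread, at -1.17, -0.99 and -0.99 against 0.21, 0.22 and 0.57 (adjusted p = 0.00352). Trdn, Khdc1c and Fhit were the genes with a symbol among the 6 lower features that stayed called with any 1 array left out.

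Gsta2, a glutathione transferase, was not above background in any lesion and read -3.96, -3.67 and -3.003 in eutopic samples, so lesions were at least 2.00-fold lower (adjusted p = 0.0280). The call was lost with slide as a block (adjusted p = 0.0533) and in all 6 fits with an array left out. Uterus was higher than both, at -1.79, -1.74 and -2.86. Vil1, the villin of brush borders, was the 1 call of 12 tested intestine and pancreas genes and at least 2.06-fold lower in lesions (adjusted p = 0.0206). Cyp3a57 and Pcdh11x, a cytochrome and a protocadherin, were at least 1.98-fold and 1.87-fold lower, calls that were lost with slide as a block (adjusted p = 0.0670 and 0.0556). Xpnpep2, an aminopeptidase, fell by 2.25 on the log2 scale, and Foxo6, a forkhead factor, by 2.35 (adjusted p = 0.0210 and 0.0418). Vil1, Xpnpep2 and Foxo6 were each called in 1 of 6 fits with an array left out. In all, 16 of the 45 lower features were not above background in any lesion array, so that their differences are bounds.

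Secreted products of uterine glands were high in lesion 2 and eutopic 2. The 18 tested gland genes had 0 calls and a median difference of -1.08, with -0.91 and -1.97 within slides 2 and 3. That median turned to 0.31 without eutopic 2 and was -0.50 without lesion 3, and it lay between -1.56 and -0.79 without each of the other 4 arrays. Foxa2, the transcription factor of glandular epithelium, read -2.99, -1.23 and -2.50 in lesions and 0.43, 0.72 and 0.39 in eutopic samples. Lesions lay below all eutopic arrays, but the difference did not pass (-2.76 ± 0.88, adjusted p = 0.235). Prss29, an implantation protease secreted by glands, read -2.35, 5.11 and -4.60 in lesions and -1.62, 5.79 and -2.60 in eutopic samples. Spink1, a secreted trypsin inhibitor, read -4.56, 4.18 and -5.63 against -0.55, 7.09 and -4.82. For both, lesion 2 and eutopic 2 were the high arrays of their group, and the tissues overlapped (adjusted p = 0.942 and 0.840). Prss28, a further defining gland marker, had the opposite sign, with lesions at 1.36-fold of eutopic samples, and was not called. Within slides 2 and 3, which did not hold lesion 2, its difference was -0.83 and -1.93. The summed gland signal was 111 in lesion 2 and 278 in eutopic 2, against 19.4 to 36.1 in the other 4 arrays.

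**Figure D4:**
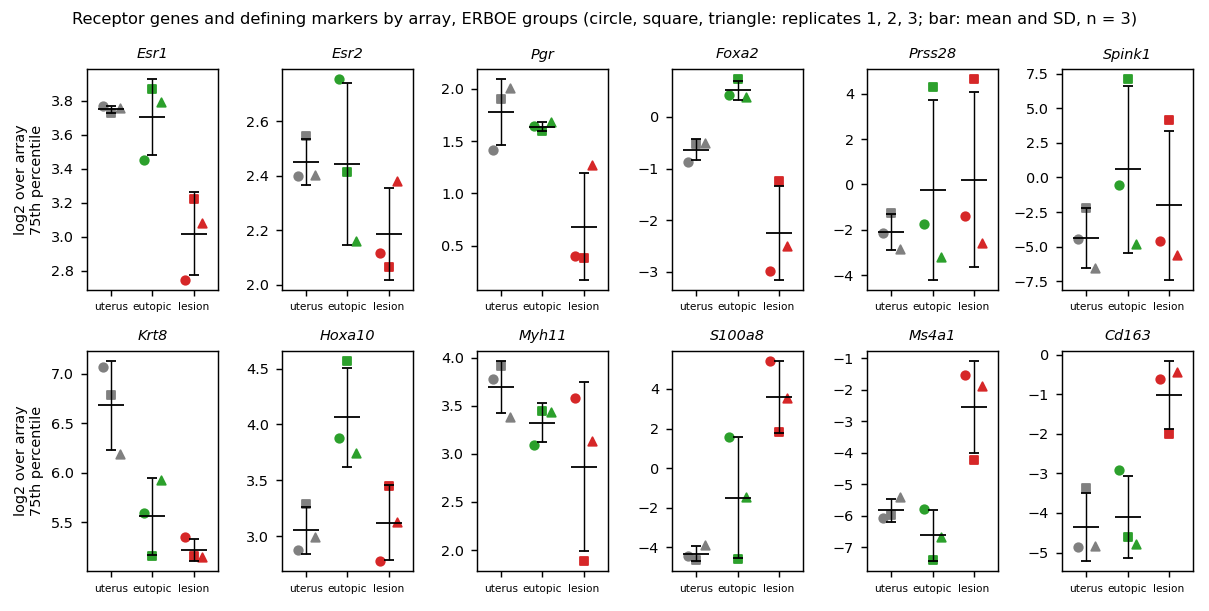
Levels of the receptor genes and of defining markers of glands, epithelium, stroma, smooth muscle and immune cells (log2 signal over the array's 75th percentile) in the 3 uterus, 3 eutopic and 3 lesion arrays of ERBOE mice, with the mean and SD. None of these 12 genes was called; replicate 2 (square) is high in both tissues for Prss28 and Spink1.

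The hormone receptors were not called. Esr1, the gene of oestrogen receptor alpha, read 2.75, 3.22 and 3.08 in lesions and 3.45, 3.87 and 3.79 in eutopic samples, so the groups did not overlap (-0.69 ± 0.33, adjusted p = 0.480). Esr2 read 2.12, 2.07 and 2.38 against 2.75, 2.42 and 2.16, with overlap (-0.25 ± 0.20, adjusted p = 0.718). Pgr, the progesterone receptor gene, read 0.40, 0.38 and 1.27 against 1.64, 1.60 and 1.68, without overlap (-0.96 ± 0.59, adjusted p = 0.624). The position of the probe relative to the overexpressed Esr2 sequence is not known here, so it does not check the labels. Of 18 receptor and coactivator genes 16 had a negative difference and 0 were called, with a median of -0.27.

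Genes that the hormones induce in uterus followed no single direction. The 32 tested oestrogen-induced genes had a median of 0.11, 19 positive and 13 negative differences and 0 calls. The sign of that median turned without lesion 1 (-0.17) and without eutopic 2 (-0.18), and it was 0.06 without lesion 2, 0.22 without eutopic 1 and 0.17 without eutopic 3. Single genes included Greb1 at -0.97 and C3, the complement component induced by oestrogen, at 1.21. The 27 progesterone-induced genes had a median of -0.47, 18 negative differences and 0 calls. That median was 0.01 without lesion 1, -0.06 without eutopic 2, -0.41 without lesion 3, -0.85 without eutopic 3, -0.94 without eutopic 1 and -0.99, with 1 gene called lower, without lesion 2. Ihh, the hedgehog ligand of epithelium, differed by -3.48 ± 2.06, and Calb1, a calcium-binding protein, by -3.04 ± 0.92 (adjusted p = 0.606 and 0.208).

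Oestrogen receptor beta has been linked to the TNF death complex, the apoptosome and the inflammasome in lesions. The 37 tested genes of these complexes had 0 calls and a median difference of 0.31. Casp1 and Nlrp3 of the inflammasome differed by 0.10 ± 0.54 and -0.09 ± 0.56, and Casp9 of the apoptosome by 0.03 ± 0.20 (each adjusted p = 0.967 or more). Il1b, the cytokine that the inflammasome matures, read 3.09, 0.52 and 0.67 in lesions and -1.43, -5.08 and -4.01 in eutopic samples. These groups did not overlap, and the difference of 4.93 ± 1.29 did not pass (adjusted p = 0.127). Il1rn, its receptor antagonist, differed by 4.23 ± 1.03 (adjusted p = 0.0926). Neutrophil and macrophage genes moved with both, as given above, and their part in these values was not tested.

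Cell-cycle genes were high in eutopic 3. The 37 mitosis genes had a median difference of 1.03 with 36 positive and 0 calls, and their summed signal was 63.6, 112 and 64.0 in lesions but 24.9, 39.2 and 131 in eutopic 1, 2 and 3. Eutopic 3 exceeded every lesion, and the median within slide 3, which held it, was 0.03, against 2.09 within slide 2. The median over all arrays was 0.33 without eutopic 1 and 1.91 without eutopic 3. Against ERBOE uterus the mitosis list had a median difference of -0.39 in lesions and -1.44 in eutopic samples. Its summed signal in uterus was between 63.2 and 166. Of 32 endothelial and angiogenic genes 30 had a positive difference, with a median of 0.60 and 0 calls. Genes of skeletal muscle had 1 call of 19, Chrna1, the acetylcholine receptor subunit of muscle (3.50 ± 0.58, adjusted p = 0.0116, 1 eutopic array above background), beside a list median of -0.49, while Ckm and Mylpf, which define that tissue, differed by 0.56 ± 0.84 and -0.18 ± 0.27. Mesothelial genes had a median of -0.01 over 18 genes and 0 calls. Adipocyte genes were higher in the same 3 arrays as the other genes above, and their part in those differences was not tested.

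PRCre lesions and PRCre eutopic endometrium, 6 further arrays with neither sample shared, gave the same contrast without the overexpression. There, 1 of 33455 features was called (0.00299%), Grem1 (adjusted p = 0.00255). It read -1.79, -1.07 and -2.54 in PRCre lesions, and 0 of 3 PRCre eutopic arrays were above background, as in ERBOE, so the sizes of its differences are not set against each other. Of the 156 features called higher in ERBOE, 152 had a positive PRCre difference, with a median of 1.47 against 3.19 in ERBOE, and of the 45 called lower, 42 had a negative one, with a median of -0.82 against -2.25. These medians are of fitted differences; with the 24 higher and 16 lower features that have only a bound in ERBOE set to it, the ERBOE medians were 2.85 and -1.63. These features were chosen for a large ERBOE difference, so the smaller PRCre medians are a description. The median PRCre difference of all features was -0.06. Adipocyte genes had a PRCre median of 1.77, and their summed signal in PRCre lesions ranged from 205 to 637.

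Adipoq differed by 5.61 ± 1.54 in PRCre and 8.00 in ERBOE, Scd1 by 3.95 ± 0.60 and 5.67, and Clec4e, above background on 1 eutopic array of each genotype, by 6.14 ± 1.16 and 6.19. Khdc1c differed by -0.82 ± 0.53 in PRCre and -3.91 in ERBOE. The test of the difference itself, the ERBOE contrast minus the PRCre contrast, called 0 of 33455 features (0%) in limma, with a smallest adjusted p of 1 and 579 features at an unadjusted p under 0.05. No lesion minus eutopic difference was therefore shown to be particular to ERBOE at this number of arrays. ERBOE eutopic endometrium did not differ from ERBOE uterus by any call either (0%, smallest adjusted p = 0.783, with 1115 features at an unadjusted p under 0.05). The counts of 579 and 1115 are both below a share of 0.05 of the features, which unadjusted p-values would give with no difference at all.

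**Figure D5:**
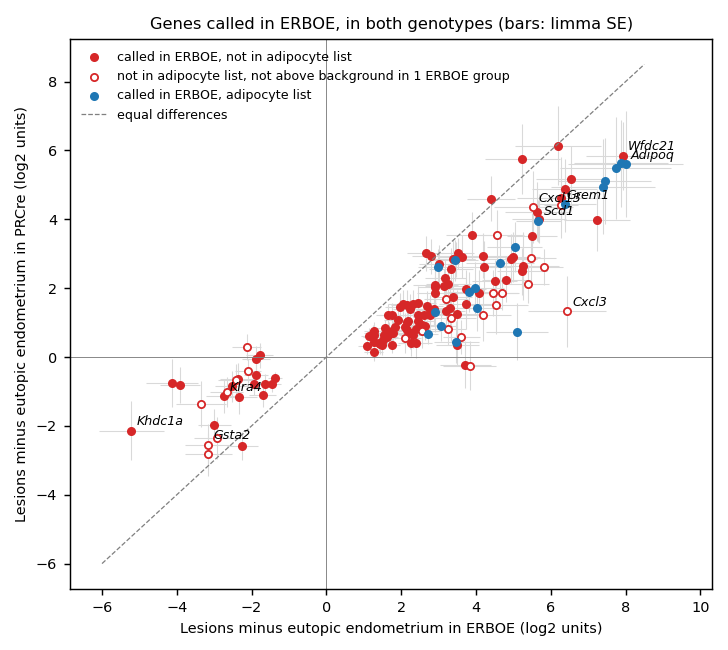
Lesion minus eutopic differences (log2 units) in ERBOE, horizontal, and PRCre, vertical, for the genes with a symbol called in ERBOE, with limma SE bars; the dashed line marks equal differences. Open points were not above background on any array of 1 ERBOE group, so their places are fitted values and not measured sizes; most genes lie on the same side of 0 in both genotypes, with Scd1 at 5.67 and 3.95.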

How the data were processed

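Total RNA, 25 ng per pool, was labelled, and 600 ng of Cy3 cRNA was hybridised to 1-colour Agilent mouse arrays, per the labels' protocols. The authors deposited scanner files whose intensity had been background-subtracted by Agilent Feature Extraction 11.0.1.1, per the file headers, and a table of log2 values; how that table was made was not stated there. Set against the scanner values, with both centred on each probe's mean, that table correlated at 0.998 to 0.999 per array, so it is on the same log2 scale and centred per probe; its column medians ranged from -0.15 to 0.36. It served as an alternative.

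Without control and outlier spots, the log2 of the processed intensity was scaled by subtracting its 75th percentile on every array, and repeat spots of a probe were averaged. Of 56605 probes, 32994 matched a symbol in the RefSeq table of GRCm38.p6 (22911 symbols), and the brightest probe stood for a symbol. Features well above background on at least 3 of 18 arrays were tested (18014 with a symbol, 15441 without). limma 3.58.1 in R 4.3.3 fitted 6 group means over 18 arrays (12 residual degrees of freedom, prior 2.47), with Benjamini-Hochberg adjustment over 33455 features and 0.05 as threshold; a called feature is one under it. A gene not above background in a group is given as a bound, from the lowest signal called above background on each array. Errors beside differences are SE. The number of arrays limits the precision: 3 against 3 cannot go below 0.1 in an exact permutation test, so none was run. The labels give pools of separate animals.

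Genes to name were drawn from Esr1, Esr2 and Pgr, defining cell type markers, and the 15 largest calls in each direction. Those calls did not overlap and were above background in the brighter group. Up to 5 calls in each direction per list were added, or the 2 smallest p-values where a list had none. Not all of these are described. Car3, Slc7a10, Cyp2e1 and A530016L24Rik, called higher, and Ccdc187, Gm10532, Rit2 and Aard, called lower, were left out. Others, list members included, were chosen after their values were seen. The comparison and the 47 lists (1238 genes) were chosen with earlier results of these data known, so no list was tested. The scanner files hold no mean signal, so normexp with an offset of 50 used the median signal. Slides were read from the file headers. Alternatives were other scaling, background correction, filters, blocks, weights, probe averaging, the authors' table and each array left out, and scripts were tested on simulated data.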

Additional observations from a re-analysis of the deposited data

How the results depend on the processing

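The counts of 156 higher and 45 lower features stayed within 1.5 times under quantile normalization (165 and 44), no filter (163 and 34), the filter within both groups (175 and 61), slide as a block (217 and 67), trended and robust moderation (173 and 56), the mean of probes (156 and 45), the authors' deposited table (149 and 42) and without PRCre uterus replicate 1 (183 and 63). No label says that replicate numbers pair the samples. Same-numbered deviations correlated at 0.13, 0.24 and -0.09, and differently numbered ones at -0.32 to 0.28. With 3 arrays per group these values cannot settle whether samples were paired. With the replicate number as a block 149 were higher and 50 lower, and 170 of the 201 calls were shared. Normexp gave 256 higher (40 lower) and moved the median of all differences from -0.13 to 0.02. The filter on all 18 arrays gave 92 higher and 28 lower of 20930 tested, and a fit of the 6 arrays alone 95 and 16. Array weights gave 703 higher and 541 lower, so that 56.5% of calls were higher in place of 77.6%, and the cause was not tested. Leaving out 1 of the 6 arrays gave 55 to 173 higher and 8 to 57 lower. Leaving out lesion 2 and eutopic 1 together, chosen after seeing the data, gave 143 and 32. The test between genotypes called 0 features under every alternative run. Single genes were followed under these alternatives for a chosen set only. Of 1120 such values, 903 kept their side of the threshold, 199 no longer passed, 18 newly passed and 0 changed sign. Genes outside that set, such as Prss29 and Spink1, whose levels were high in lesion 2 and eutopic 2, are not covered by these counts. Signal over background limits the dim genes: 24 higher and 16 lower features have only a bound in the other tissue.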
